A study of Homo sapiens with 4 samples.

Results

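The genes described here are MYC with its partners and antagonists, the nucleolar factors that assemble ribosomes, and subunits and a cofactor of RNA polymerase I. They were taken as a list of 37 named genes out of 25277 gene symbols in the table. All 37 had a value in each of the 4 libraries, and 36 passed the filter for testing, a mean of at least 1 FPKM (fragments per kilobase of transcript after scaling for library size, a level corrected for transcript length). MYCN did not. It was listed at 0.0299 and 0.717 FPKM in the Z138 hairpin and control libraries and at 0 and 0.0210 FPKM in the Mino hairpin and control libraries.

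Total RNA was sequenced from Mino and Z138, established lines of mantle cell lymphoma, a B cell cancer. The 4 groups were Z138 with a tet-on short hairpin against BTK (shBTK), Z138 with the control vector sc4, Mino with shBTK and Mino with sc4, at 1 library each. All 4 cultures were stably transfected and had received doxycycline for 48 hours, so the control cells carried the vector system and the drug too. The labels give neither the sequence that sc4 expressed nor whether each stable line was a clone or a pool. With 1 hairpin, its effects on other genes cannot be told apart from those of lowering BTK, the kinase below the B cell receptor.

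MYC is a transcription factor that binds DNA together with MAX, most strongly at the sequence called the E-box, and drives growth genes. The MXD proteins and MNT compete with it for MAX at the same sites and repress them. Ribosome production is among the best known programmes under MYC: RNA polymerase I copies the ribosomal RNA genes in the nucleolus, small nucleolar ribonucleoproteins (snoRNPs) modify the transcript, and assembly factors cut, fold and pack it into the small and large subunits. In B cell lymphomas MYC is a frequent driver of growth.

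The hairpin reduced its target. BTK was at 9.84 FPKM in the Mino hairpin library, against 36.99 in the Mino control, and at 12.4 in the Z138 hairpin library, against 51.0 in the Z138 control. By limma its mean log2 ratio was −1.88, with an SE of 0.13 and an adjusted p of 0.000964, and it was lower in 2 of 2 lines. It did not pass without the filter on low values (adjusted p = 0.101) or without the line as a block (adjusted p = 1.00). Of 9 B cell and mantle cell lymphoma markers, 8 or 9 reached 1 FPKM in each library, but their levels differed between the lines. CD5 was at 0.0531 and 0.0751 FPKM in the Z138 hairpin and control libraries, against 1.70 and 2.33 FPKM in Mino. CD22 was at 5.96 and 3.34 FPKM in Z138, against 102 and 107 FPKM in Mino. CCND1, the cyclin gene that the defining translocation of this lymphoma activates, was at 600.5 and 591 FPKM in the Z138 hairpin and control libraries and at 2.62 and 3.18 FPKM in Mino. The summed level of 7 myeloid markers was 0.147 to 0.482 FPKM and that of 8 T and NK cell markers 2.95 to 5.96 FPKM. That of 5 stromal markers was 0.829 and 1.04 FPKM in the Z138 hairpin and control libraries, against 6.09 and 7.20 FPKM in Mino, mostly COL1A1 and PDGFRB, with DCN at 0 in all 4. The part of these markers in the differences between the lines was not tested. The columns summed to between 669013 and 740192 FPKM, and the read depth behind them is unknown. The Z138 control library stood apart: EEF1A1, an elongation factor gene, was listed at 0 there and at 6404 to 6976 FPKM in the others. With that library left out, the line was the only term in the limma model, and that fit held no spread within Z138. Between the hairpin libraries alone the listed nucleolar genes had a median level of 43.1 FPKM in Z138, against 12.0 FPKM in Mino.

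The comparison of the lines showed far larger differences among these genes than the hairpin did. MYC was at 439 and 407 FPKM in the Z138 hairpin and control libraries, against 46.6 and 63.9 FPKM in the Mino hairpin and control libraries. The level in Z138 was thus 9.42 times that in Mino among the hairpin libraries and 6.36 times among the controls. Both Z138 libraries lay far above both Mino libraries. On the log2(FPKM + 1) scale the difference, Z138 minus Mino, was 2.93 (SE 0.15, adjusted p = 1.62e-06 in limma, 2 libraries per line). Over 13 settings of the analysis it lay between 2.71 and 3.15. FPKM is a share of each library's RNA, so the amount of RNA per cell was not measured, and in bulk samples fewer expressing cells and less RNA per cell cannot be told apart.

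MAX, the partner of MYC, was at 45.2 and 45.9 FPKM in the Z138 hairpin and control libraries, against 40.9 and 33.0 FPKM in Mino. The difference of 0.30 (SE 0.13) did not pass as deposited (adjusted p = 0.0742 in limma). It passed in 4 of 13 settings, median centring and quantile normalization among them, and the highest adjusted p was 0.278. MXD1, an antagonist, was at 1.99 and 1.97 FPKM in the Z138 hairpin and control libraries, against 5.38 and 7.41 FPKM in Mino. It was lower in Z138 by a log2 difference of −1.30 (SE 0.16, adjusted p = 0.000147 in limma).

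MXD3, the antagonist with the highest level, was at 28.7 and 29.6 FPKM in the Z138 hairpin and control libraries, against 42.6 and 41.0 FPKM in Mino. MXD4, another antagonist, was at 7.40 and 7.16 FPKM in Z138, against 11.9 and 10.7 FPKM in Mino. Both were lower in Z138 by limma, with log2 differences of −0.51 for MXD3 (SE 0.12, adjusted p = 0.00672) and −0.57 for MXD4 (SE 0.13, adjusted p = 0.00594), although MXD4 did not pass without the Mino hairpin library (adjusted p = 0.0571). MNT, a further antagonist, went the other way, at 10.8 and 12.0 FPKM in the Z138 hairpin and control libraries, against 6.13 and 7.21 FPKM in Mino (log2 difference 0.70, SE 0.13, adjusted p = 0.00206 in limma).

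MYC was then set against the summed FPKM of the antagonists on the list, MXD1, MXD3, MXD4 and MNT. In the Z138 hairpin and control libraries it was at 8.99 and 8.01 times that sum. The Mino hairpin and control libraries had 0.707 and 0.964 times. The ratio of MYC to MAX was 9.72 and 8.86 in Z138, against 1.14 and 1.94 in Mino. In both ratios the 2 Z138 libraries were close to each other and far from Mino, and in Mino the hairpin library was the lower. MXI1, an antagonist outside the list, is not part of the sum. It was at 15.2 and 12.8 FPKM in the Z138 hairpin and control libraries, against 26.2 and 33.5 FPKM in Mino. These are ratios of RNA levels, and protein was not measured.

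**Figure D1:**
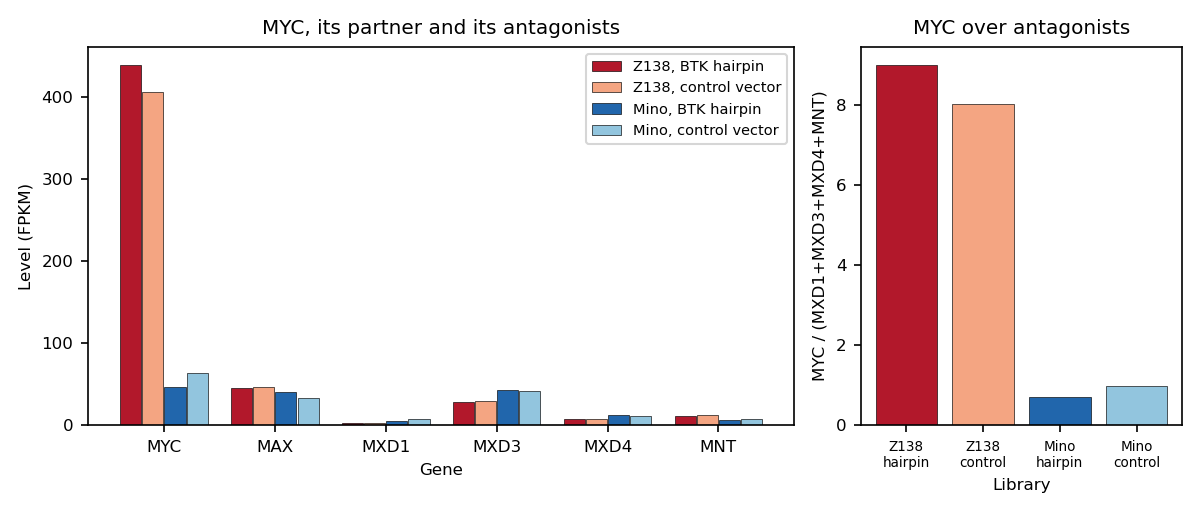
Bars give the level in FPKM (y axis, left panel) of MYC, MAX and the listed antagonist genes, with 1 bar per library and no replicate. The right panel gives MYC divided by the summed FPKM of MXD1, MXD3, MXD4 and MNT. MYC stands at 439 and 407 FPKM in the Z138 libraries and at 46.6 and 63.9 FPKM in the Mino libraries, while MAX lies between 33.0 and 45.9 FPKM in all.

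The nucleolar genes followed the same direction between the lines. Of the 36 tested genes, 31 were called higher and 4 lower in Z138, where 28.7% of all 11484 tested symbols were called higher and 38.8% lower (67.4% in either direction). Among the 30 nucleolar genes alone, 29 were higher and FBL was lower. The median log2 difference of these 30 was 1.37, while that of all tested symbols was −0.12. Centring each library on its median moved the median of all symbols to 0.04 and quantile normalization to 0.05. With either, 32 of the 36 were called higher, and the 29 nucleolar genes passed in every setting they entered. Both Z138 libraries lay above both Mino libraries in 32 of the 36 genes, and in 37.4% of all tested symbols. In the other 4 both Z138 libraries lay below, as in 48.8% of all. The median level of the 30 nucleolar genes was 43.1 and 41.8 FPKM in the Z138 hairpin and control libraries, against 12.0 and 12.9 FPKM in Mino. Only 1 line of each kind was studied, at 1 library per line and vector. These p-values therefore rest on how far line differences varied between the hairpin and control vectors, over all tested symbols more than within a gene. In limma the variance shared over symbols had 6.9 prior degrees of freedom, against 1 residual degree of freedom per gene. The p-values measure no spread between replicate cultures or between lymphomas.

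**Figure D2:**
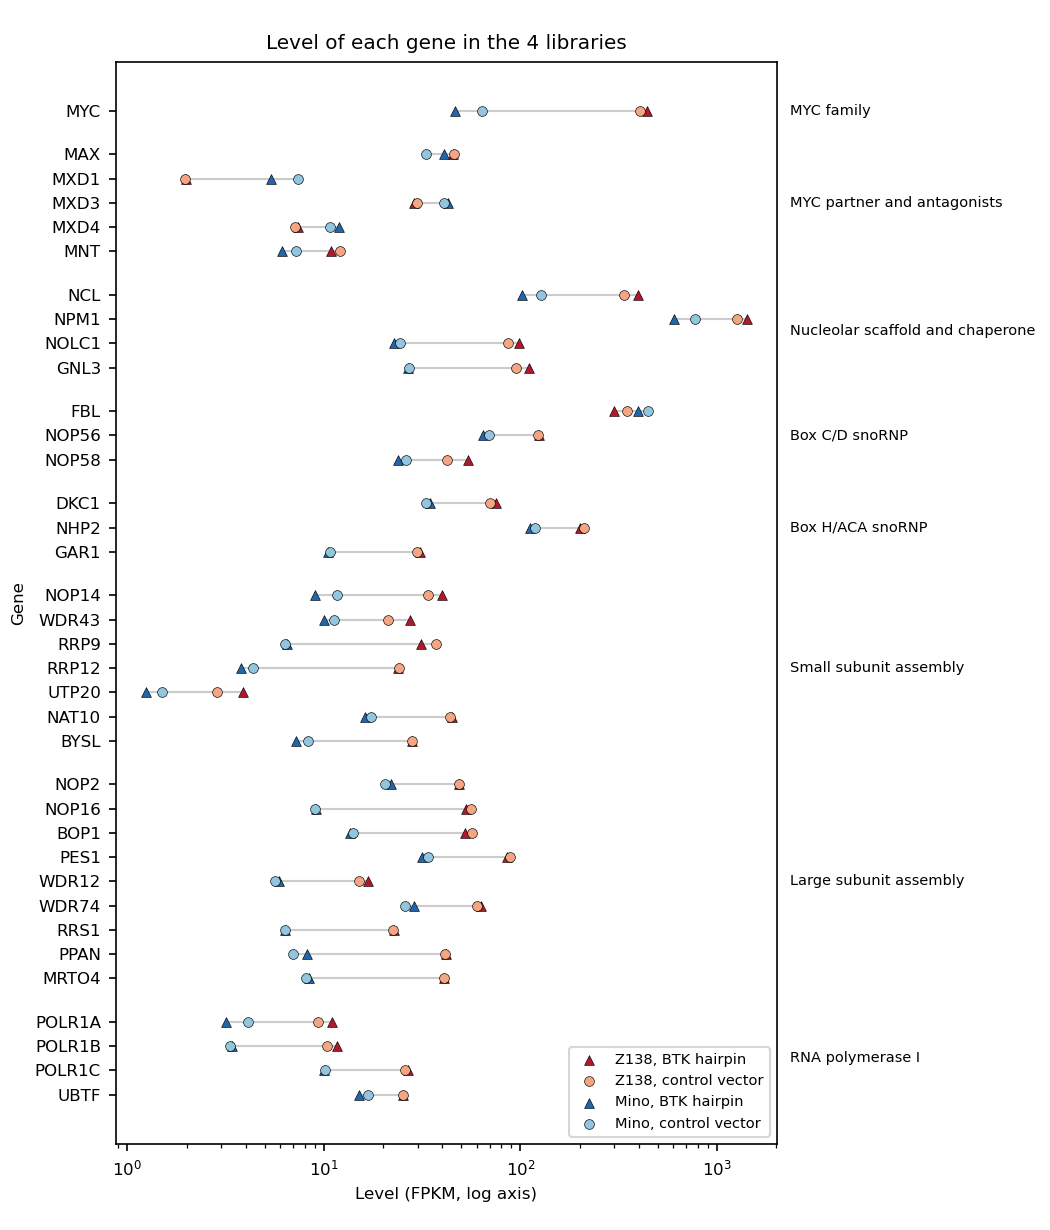
Each row is a tested gene, grouped by role, and each point its level in a library (FPKM, log x axis), with triangles for hairpin and circles for control libraries. The red Z138 points lie to the right of the blue Mino points for MYC and 29 of 30 nucleolar genes, and to the left for FBL, MXD1, MXD3 and MXD4.

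E-boxes stood in many of the promoters of these genes. RefSeq promoters (GRCh38.p14, 250 bases before to 50 after the annotated start) were matched for 31 of the 37 genes, and CACGTG, which reads the same on both strands, was found in 12 of them, or 38.7%. No promoter was matched for MYC, NOLC1, NOP58, RRP12, BOP1 and RRS1. CACGTG was found in 7.26% of all 35116 promoters of that length and in 9.84% of the 12359 promoters whose symbols were tested. For the 31 genes a symbol's further promoters were left out, while the wider sets count every promoter, so these are unlike measures. CACGCG, a variant E-box that cannot overlap CACGTG, was found on either strand in 32.3% of the 31 promoters, in 11.4% of all and in 17.6% of those tested. Of the 12 CACGTG sites, 10 began between −20 and 40, counted with the start base as 0. The share of sites in that window was not computed for other promoters, so no comparison is drawn. The next lines give the promoters of RRP9 and MRTO4, which had large differences between the lines and an E-box, of FBL, which has an E-box but was lower in Z138, and of NOP16, which has none but had the largest difference among the nucleolar genes. Each is on its gene's strand, 5′ to 3′, and capitals mark CACGTG.
RRP9: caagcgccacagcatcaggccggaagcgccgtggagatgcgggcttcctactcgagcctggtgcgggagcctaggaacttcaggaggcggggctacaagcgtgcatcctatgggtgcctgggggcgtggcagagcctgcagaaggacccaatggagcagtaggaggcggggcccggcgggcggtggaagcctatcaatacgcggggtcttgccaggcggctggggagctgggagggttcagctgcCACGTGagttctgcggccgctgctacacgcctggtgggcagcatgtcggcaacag
MRTO4: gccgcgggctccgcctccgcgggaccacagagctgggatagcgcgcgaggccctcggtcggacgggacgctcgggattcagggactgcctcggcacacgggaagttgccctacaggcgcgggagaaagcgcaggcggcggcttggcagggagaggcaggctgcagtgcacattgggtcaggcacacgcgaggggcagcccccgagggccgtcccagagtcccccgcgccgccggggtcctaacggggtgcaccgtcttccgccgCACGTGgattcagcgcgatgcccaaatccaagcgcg
FBL: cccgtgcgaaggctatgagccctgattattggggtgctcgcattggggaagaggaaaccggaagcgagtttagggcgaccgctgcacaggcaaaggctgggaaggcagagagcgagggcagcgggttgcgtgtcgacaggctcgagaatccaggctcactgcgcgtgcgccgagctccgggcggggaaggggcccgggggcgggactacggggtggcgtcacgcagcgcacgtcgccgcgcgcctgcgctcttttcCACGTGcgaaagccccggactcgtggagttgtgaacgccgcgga
NOP16: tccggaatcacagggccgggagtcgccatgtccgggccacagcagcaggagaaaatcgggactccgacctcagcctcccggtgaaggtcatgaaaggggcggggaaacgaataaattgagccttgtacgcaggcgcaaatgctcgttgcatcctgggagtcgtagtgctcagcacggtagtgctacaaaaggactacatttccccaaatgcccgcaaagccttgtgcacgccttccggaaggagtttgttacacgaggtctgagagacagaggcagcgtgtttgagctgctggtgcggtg
RRP9 lies at chr3:51941855-51942154 on the minus strand, with the E-box at −5. MRTO4 lies at chr1:19251555-19251854 on the plus strand, with the E-box at 14. FBL lies at chr19:39846330-39846629 on the minus strand, with the E-box at 6, and NOP16 at chr5:176388549-176388848 on the minus strand. Among the nucleolar genes with a promoter, the 10 with CACGTG had a median log2 difference between the lines of 1.37 (range −0.38 to 2.25), and the 15 without it 1.31 (range 0.64 to 2.46). A match to these letters is a description of the sequence, and binding was not measured.

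Large subunit assembly factors were all called higher in Z138, 9 of 9, beside 28.7% of all tested symbols. Their log2 differences ran from 1.15 to 2.46. NOP16, a nucleolar protein of the early large subunit, was at 52.8 and 55.9 FPKM in the Z138 hairpin and control libraries, against 9.13 and 9.05 FPKM in Mino. Its difference of 2.46 (SE 0.13, adjusted p = 1.55e-06 in limma) was the largest of the nucleolar genes, and the 2 libraries of each line were nearly equal. PPAN, which takes part in large subunit maturation, was at 41.6 and 41.4 FPKM in Z138, against 8.17 and 6.98 FPKM in Mino. MRTO4, a relative of the ribosomal stalk protein that holds its place during assembly, was at 41.1 and 40.9 FPKM in Z138, against 8.35 and 8.11 FPKM in Mino. In both genes the libraries of a line were close to each other and the lines did not overlap.

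BOP1, PES1 and WDR12 form a complex needed to process the RNA of the large subunit, and they differed to unequal degrees. BOP1 was at 52.4 and 56.7 FPKM in the Z138 hairpin and control libraries, against 13.6 and 14.1 FPKM in Mino. PES1 was at 85.8 and 88.6 FPKM in Z138, against 31.5 and 33.9 FPKM in Mino, and WDR12 at 16.8 and 15.0 FPKM, against 5.88 and 5.64 FPKM. The log2 differences were 1.90 for BOP1, 1.39 for PES1 and 1.32 for WDR12 (SE 0.12, 0.12 and 0.13), so all 3 rose, and BOP1 by the most. NOP2, an RNA methyltransferase, RRS1, which helps to bring the small 5S ribosomal RNA in, and WDR74, an assembly factor, had differences of 1.16, 1.68 and 1.15. RRS1 was at 22.8 and 22.4 FPKM in the Z138 hairpin and control libraries, against 6.36 and 6.33 FPKM in Mino.

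Small subunit assembly factors were called higher in Z138 in 7 of 7 cases, beside 28.7% of all tested symbols, with differences from 0.87 to 2.31. RRP12, a factor for export and maturation of pre-ribosomes, was at 24.0 and 24.1 FPKM in the Z138 hairpin and control libraries, against 3.78 and 4.37 FPKM in Mino. Its log2 difference was 2.31 (SE 0.14, adjusted p = 2.95e-06 in limma). RRP9, a protein of the snoRNP that begins small subunit processing, was at 31.3 and 37.4 FPKM in Z138, against 6.47 and 6.36 FPKM in Mino (log2 difference 2.25, SE 0.14, adjusted p = 3.65e-06). Both were more than 4-fold higher in Z138 in each vector. UTP20, a large scaffold of the same processing complex, was at 3.86 and 2.85 FPKM in the Z138 hairpin and control libraries, against 1.24 and 1.496 FPKM in Mino, the lowest Mino levels of the tested genes. NOP14, WDR43, NAT10, which acetylates ribosomal RNA, and BYSL, needed for late maturation, had differences of 1.75, 1.11, 1.35 and 1.73. BYSL was at 28.0 FPKM in both Z138 libraries, against 7.24 and 8.31 FPKM in the Mino hairpin and control libraries.

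The nucleolar scaffold and chaperone genes differed widely in RNA level. NPM1, a histone and ribosome chaperone, was the highest of the genes in every library, at 1423 and 1271 FPKM in the Z138 hairpin and control libraries, against 609 and 774 FPKM in Mino. NCL, nucleolin, was at 398 and 336 FPKM in Z138, against 102.5 and 127 FPKM in Mino. By limma the log2 difference was 0.97 for NPM1 (SE 0.14, adjusted p = 0.000505) and 1.67 for NCL (SE 0.15, adjusted p = 2.86e-05). GNL3, the GTPase nucleostemin, was at 110 and 95.4 FPKM in Z138, against 26.8 and 27.2 FPKM in Mino. NOLC1, a chaperone that shuttles snoRNPs, was at 98.1 and 86.6 FPKM in Z138, against 22.7 and 24.5 FPKM in Mino. In these 4 genes the Z138 hairpin library was above the Z138 control, while the Mino hairpin library was below the Mino control.

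Box C/D snoRNPs add methyl groups to ribosomal RNA, and their core contains FBL, the methyltransferase fibrillarin, with NOP56 and NOP58. FBL was at 300.4 and 350.2 FPKM in the Z138 hairpin and control libraries, against 396 and 448 FPKM in the Mino hairpin and control libraries, the only nucleolar gene that was lower in Z138. The log2 difference was −0.38 (SE 0.11, adjusted p = 0.0184 in limma). It did not pass with median centring (−0.22, adjusted p = 0.16), nor without the Mino hairpin (adjusted p = 0.052), the Mino control (adjusted p = 0.151) or the Z138 hairpin library (adjusted p = 0.152). Its partners were higher in Z138: NOP56 was at 125 and 123 FPKM, against 64.5 and 69.0 FPKM in Mino, and NOP58 at 53.9 and 42.1 FPKM, against 23.9 and 26.2 FPKM.

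Box H/ACA snoRNPs convert uridine to pseudouridine. All 3 of their core proteins on the list were called higher in Z138, as were 28.7% of all tested symbols. NOP10, a core protein outside the list, was at 199.8 and 224.1 FPKM in Z138 (hairpin, control), against 186.8 and 195.1 FPKM in Mino. Its log2 difference of 0.15 (SE 0.12) did not pass (adjusted p = 0.282 in limma). DKC1, the pseudouridine synthase dyskerin, was at 74.9 and 70.2 FPKM in the Z138 hairpin and control libraries, against 34.8 and 33.1 FPKM in Mino (log2 difference 1.07). NHP2 and GAR1, its partners, had differences of 0.83 and 1.42. GAR1 was at 30.7 and 29.6 FPKM in Z138, against 10.5 and 10.7 FPKM in Mino. RNA polymerase I genes were called higher in Z138 in 4 of 4 cases, beside the same share of all tested symbols. POLR1A and POLR1B, the subunits that form the catalytic centre, were at 10.9 and 11.7 FPKM in the Z138 hairpin library and at 9.38 and 10.4 FPKM in the Z138 control, against 3.19 and 3.42 FPKM in the Mino hairpin library and 4.12 and 3.32 FPKM in the Mino control. POLR1C, a subunit shared with RNA polymerase III, differed by 1.31. UBTF, which binds the ribosomal RNA gene promoter, differed by 0.64 (SE 0.13, adjusted p = 0.0025 in limma), the smallest rise among the nucleolar genes. It was at 25.3 and 25.4 FPKM in the Z138 hairpin and control libraries, against 15.05 and 16.7 FPKM in Mino.

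**Figure D3:**
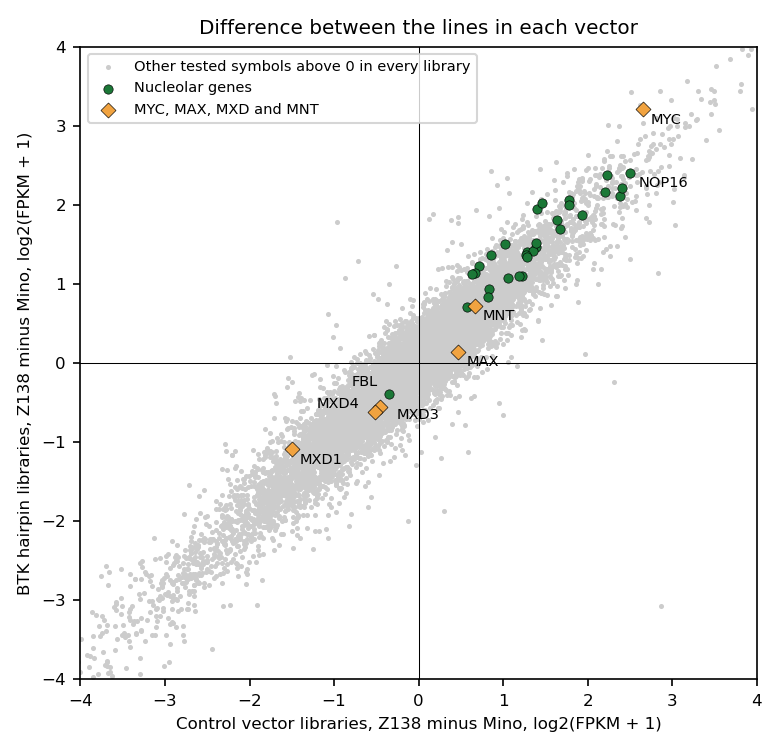
Each point is a gene, placed by the log2(FPKM + 1) difference of Z138 minus Mino in the control libraries (x axis) and in the hairpin libraries (y axis), with other tested symbols in grey. Nucleolar genes lie in the upper right apart from FBL, MYC lies above them, and MXD1, MXD3 and MXD4 lie in the lower left; the axes end at 4 either way and some grey points fall outside.

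A wider set of 124 other ribosome biogenesis genes was listed to place the 30 in context, and 122 of them were tested. Of these, 81 were called higher and 11 lower in Z138 (28.7% and 38.8% of all tested symbols), with a median log2 difference of 0.62. Small subunit processome genes were higher in 36 of 45 cases and lower in 1, and large subunit genes higher in 33 of 47 and lower in 5. SDAD1, a large subunit factor, was at 23.9 and 18.6 FPKM in the Z138 hairpin and control libraries, against 6.65 and 5.86 FPKM in Mino. NIP7, another, was at 25.0 and 22.7 FPKM in Z138, against 8.11 and 7.27 FPKM in Mino. The other RNA polymerase I genes were mixed, with 8 of 17 higher and 3 lower. POLR2E, a subunit that all 3 nuclear RNA polymerases share, was among the lower, at 35.1 and 36.5 FPKM in Z138, against 86.2 and 92.5 FPKM in Mino. Among 13 further snoRNP and snoRNP assembly genes, 4 were higher and 2 lower.

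MYC targets with roles outside the ribosome were called higher in Z138 in 24 of 35 cases and lower in 5, beside 28.7% higher and 38.8% lower among all tested symbols. The examples that follow were chosen after their values were seen. SRM, spermidine synthase, was at 212 and 216 FPKM in the Z138 hairpin and control libraries, against 60.9 and 61.4 FPKM in Mino. IPO4, a nuclear importer, had a log2 difference of 2.44 (SE 0.13) and PAICS, a purine synthesis enzyme, of 1.34 (SE 0.12). TFRC, the transferrin receptor, went the other way, at 18.3 and 19.2 FPKM in Z138, against 51.2 and 54.9 FPKM in Mino.

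Genes that act on the MYC protein were mostly lower in Z138, in 10 of 14 cases, with 1 higher, where 38.8% of all tested symbols were lower and 28.7% higher. PIM1 and SKP2 were likewise chosen after their values were seen. PIM1, a kinase that phosphorylates MYC, was at 31.5 and 30.2 FPKM in the Z138 hairpin and control libraries, against 186 and 230.5 FPKM in Mino. SKP2, a ubiquitin ligase subunit, was at 9.74 and 10.8 FPKM in Z138, against 32.2 and 32.1 FPKM in Mino. The exception was USP36, a nucleolar deubiquitinase, at 24.4 and 25.7 FPKM in Z138, against 7.29 and 7.68 FPKM in Mino. Of 10 other MYC network genes, 1 was higher and 3 were lower, against the same shares of all symbols.

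The hairpin comparison asked whether these genes changed where BTK RNA was lowered to 26.6% of control in Mino and 24.3% in Z138. None of the 36 passed in limma across both lines, in either direction, and 0 of them had an unadjusted p under 0.05. Of all 11484 symbols, 14 passed, 0.122%, of which 7 were higher and 7 lower. That split depended on the scaling, with 27 higher and 15 lower after median centring, and 1 higher and 6 lower after quantile normalization. The lowest unadjusted p among the 36 was that of FBL (0.117), with a log2 ratio of −0.20 (SE 0.11). Each line had 1 pair of libraries and the test has 1 residual degree of freedom, so a miss does not show that a gene kept its level.

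No member reached 1.5-fold in either line. Of all tested symbols 0.923% were higher and 1.24% lower by that much in Mino, and 0.94% and 0.819% in Z138. At 1.2-fold, 6 of the 36 were lower and 1 was higher in the Mino hairpin library, where 8.72% of all tested symbols were lower and 7.42% higher. In the Z138 hairpin library 3 were higher and 0 lower, where 9.98% were higher and 7.13% lower. Medians of the 36 log2 ratios were −0.09 in Mino and 0.02 in Z138, beside −0.01 and 0.03 for all tested symbols. The count on the lower side in Mino was above the share of all symbols, and the other 3 counts were below it.

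MYC was the lowest of the 36 in Mino, with 46.6 FPKM in the hairpin library, against 63.9 FPKM in the control, or 72.9% of the control value. In Z138 it was at 439 FPKM in the hairpin library, against 407 FPKM in the control, or 108%. The log2 ratios were −0.45 in Mino and 0.11 in Z138, with a mean of −0.17 (SE 0.15, adjusted p by limma 1.00), and MYC was lower in 1 of 2 lines. The remaining genes lower by at least 1.2-fold in Mino were MXD1 (−0.40), NPM1 (−0.35), NOP14 (−0.34), NCL (−0.31) and POLR1A (−0.29), all log2 ratios. The gene on the higher side was MAX, at 40.9 FPKM in the Mino hairpin library, against 33.0 FPKM in the Mino control (0.30). In Z138 these 6 lower genes had log2 ratios from 0.01 to 0.24, and MAX had −0.02.

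The genes on the higher side in Z138 were NOP58 (log2 ratio 0.35), WDR43 (0.35) and UTP20 (0.34). In Mino their ratios were −0.12, −0.16 and −0.16. Of the 36 genes, 16 were below 0 in Mino and above 0 in Z138, a pattern of 32.1% of all tested symbols. A further 8 were above 0 in both lines (23.1% of all), 7 below 0 in both (19.4%) and 5 above 0 in Mino alone (24.1%). Spearman's rho between the Mino and Z138 ratios over the 36 genes was −0.24, a description across genes measured in the same libraries. No gene differed by 1.2-fold in opposite directions, and the difference in response between the lines could not be tested with 1 pair per line.

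By role, the scaffold and chaperone genes were below 0 in Mino in 4 of 4 cases and above 0 in Z138 in 4 of 4 (medians −0.21 and 0.19). Of all 11484 tested symbols, 5964 were below 0 in Mino and 6354 above 0 in Z138, while 5474 were above 0 in Mino. Box C/D proteins were below 0 in Mino in 3 of 3, and small subunit factors in 6 of 7 (medians −0.12 and −0.16). Large subunit factors were above 0 in Mino in 7 of 9 cases, with a median of 0.04, and their Z138 median was 0.00. DKC1, WDR12, WDR74, RRS1, PPAN, MRTO4 and POLR1B were above 0 in both lines together with MXD4, at log2 ratios of at most 0.20 in Mino and 0.16 in Z138. FBL, NHP2, RRP12, BOP1, PES1, UBTF and MNT were below 0 in both lines. None of these ratios passed the test.

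**Figure D4:**
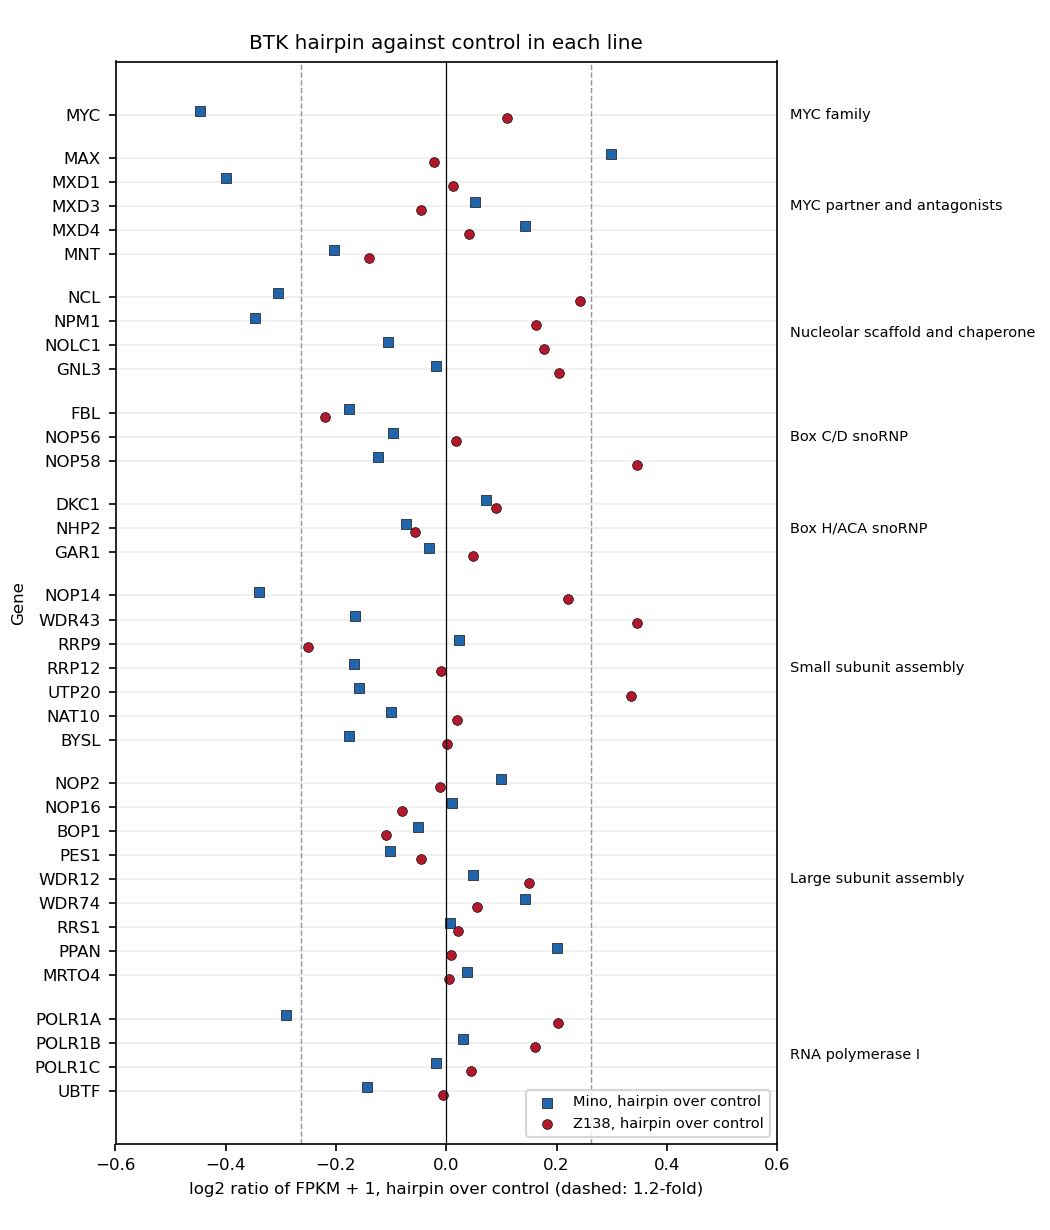
Each row is a tested gene, so MYCN is left out. Points give the log2 ratio of hairpin over control (x axis, FPKM + 1) in Mino (squares) and Z138 (circles), with 1 pair of libraries per point and no error bar. All points lie between −0.45 and 0.35, and most lie within the dashed lines at 1.2-fold.

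GC content moved with the Z138 ratios. Across the 36 genes the Z138 log2 ratio and the GC content of the longest transcript had a Spearman rho of −0.77, and across 10477 tested symbols above 0 in every library it was −0.57. In Mino the values were 0.22 and 0.11. These are descriptions across genes of the same 2 libraries. NOP58, WDR43 and UTP20, the highest in Z138, had 41.2%, 40.3% and 42.3% GC, while RRP9, the lowest at −0.25, had 60.9%. With trends on GC content and length removed, these ratios were 0.23, 0.21, 0.19 and −0.14, and rho over the 36 genes was −0.24. In Mino the same step left MYC at −0.46, NPM1 at −0.34 and NCL at −0.29. The medians of the 36 after it were −0.08 in Mino and 0.07 in Z138, beside 0.00 and 0.00 for all symbols it covered.

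**Figure D5:**
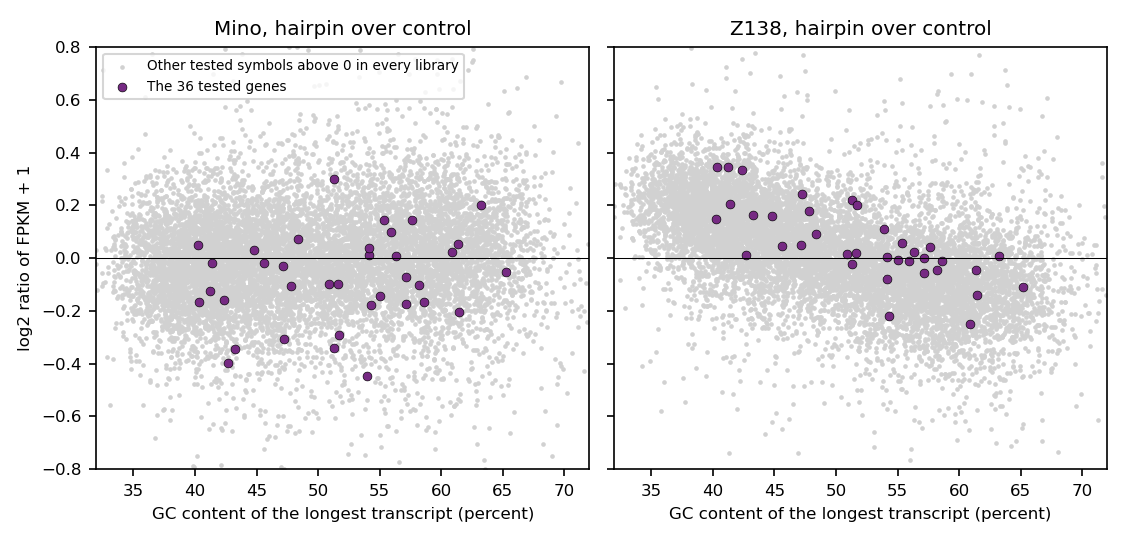
Points give the log2 ratio of hairpin over control (y axis) against the GC content of each gene's longest transcript in percent (x axis), for Mino (left) and Z138 (right), with the 36 genes in purple and other tested symbols in grey. Ratios go down with GC content in Z138 (rho −0.77 for the 36 genes) and show a weak upward trend in Mino (rho 0.22).

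The related lists gave 0 calls for the hairpin in limma. Among the 122 other ribosome biogenesis genes 0 had an unadjusted p under 0.05, and their medians were −0.04 in Mino and 0.13 in Z138, which became −0.03 and 0.07 after the GC and length step. NVL, an ATPase of large subunit assembly, was at 7.15 FPKM in the Mino hairpin library, against 5.97 in the Mino control, and at 15.4 FPKM in the Z138 hairpin library, against 12.8 in the Z138 control. Of the 35 MYC targets outside the ribosome, 15 were below 0 in both lines, as were 19.4% of all tested symbols. An unadjusted p under 0.05 was found for 4 of the 35 and for 320 of all 11484. These 4 were ENO1, LDHA and HK2, of glycolysis, and ODC1, the enzyme that begins polyamine synthesis. ODC1 was at 179 FPKM in the Mino hairpin library, against 222 in the Mino control, and at 298 FPKM in the Z138 hairpin library, against 352 in the Z138 control. LDHA was at 289 FPKM in the Mino hairpin library, against 439 in the Mino control, and at 388 FPKM in the Z138 hairpin library, against 454 in the Z138 control. TRIB1, from the list of genes that act on the MYC protein, was below 0 in both lines, at −0.32 (Mino) and −0.29 (Z138) as log2 ratios.

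Some of these levels are uncertain because genes share sequence or position. NPM1 has 45 named pseudogenes in GENCODE release 29, and 7 of the 37 genes hold 25 snoRNA genes within them, GNL3, NOP56 and NOP58 among them. Another symbol of the table overlaps 13 of the 37, mostly from the opposite strand, and the sources used here do not say whether reads were counted by strand. PPAN is overlapped on its own strand by its readthrough PPAN-P2RY11.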

How the data were processed

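RNA was extracted with a column kit and sequenced after TruSeq library preparation, per the labels' protocols. The authors deposited FPKM values, 1 column per library, per the file headers. The submitters' processing notes list TopHat and hg19 and no version of either. The sources used here do not name the program that computed FPKM or its gene models. Low values were searched for steps of whole reads. At or below 0.1 FPKM no ratio between 2 libraries was shared by more than 12.7% of symbols within 0.05 on the log2 scale, so read depth is unknown and no counting interval is given.

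Values were analysed as log2(FPKM + 1), which understates changes of low genes. Across lines, limma 3.58.1 in R 4.3.3 was fitted to 11484 symbols averaging 1 FPKM or more, with line and hairpin as terms and a mean-variance trend. P-values were adjusted by Benjamini-Hochberg over all of them at 0.05. Hairpin and control libraries are paired by cell line, and the line term is that block. With 1 library per line and vector, the lines are the only replication for the hairpin, and the 2 vectors the only replication for the lines. SE is limma's moderated standard error. GC content and length came from the longest transcript in GENCODE release 29, which covered 93.9% of tested symbols, and spline trends on both were removed as an alternative. Other alternatives were the pseudocount (0.1), the filter (none, or 5 FPKM), leaving out symbols listed at 0, median centring, quantile normalization, no trend and no block.

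The 37 genes and the lists were chosen with earlier results of these data known. Named genes were BTK, the 37 genes and, per list of other genes, up to 4 whose ratios had 1 sign in Mino and Z138, ranked by the smaller ratio. Others are said to be chosen after their values were seen, apart from MXI1, an antagonist outside the list that this rule did not name. The result of 1 further list is not reported here. Leaving out a library in turn and the GC step between lines were added after seeing the data. With a library left out, the line comparison had the line as its only term, and 1 line had 1 library.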

Additional observations from a re-analysis of the deposited data

How the results depend on the processing

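The number of symbols called for the hairpin across the table, 14 as reported, was 2 with no filter on low values, 9 at a mean of at least 5 FPKM, 28 without symbols listed at 0, 42 after median centring, 7 after quantile normalization and 7 after the GC and length correction. Without the line as a replicate block, which pairs the libraries of a line, it was 0. With a library left out in turn and the hairpin alone in the model, since the block then leaves no residual degree of freedom, it was 0 to 0. The prior degrees of freedom of limma ranged from 3.45 to 18.9 over these settings with the block, and the cause of the differences in count was not tested. The genes described here gave 0 calls for the hairpin in each of these settings.

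Their mean hairpin ratios changed sign where they were near 0: MXD3 (−0.01), GAR1 (−0.00) and POLR1C (−0.00) with median centring, NCL (0.02) with quantile normalization, and GAR1 (−0.01), POLR1A (0.00) and POLR1C (−0.01) with the GC and length correction. The median ratio of the 36 genes over both lines was −0.01, and leaving out each line gave −0.09 to 0.02. Between the lines, 33 to 36 of the genes were called in all settings that kept every library. With a library left out, the hairpin term was dropped and a line was left with a single library. Over the table, 7745 symbols were called, 3293 higher and 4452 lower, against 4179 and 3836 after median centring and 4024 and 3556 after quantile normalization.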
